A study of Mus musculus with 192 samples.

Results

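Progenitors of mouse bone marrow with high surface CD135 were set against progenitors with low CD135, both taken from cells whose CD150 signal was not high. The cells were C57BL/6 LSK cells (lineage-negative, Sca-1-positive, cKit-positive haematopoietic stem and progenitor cells) from mice of 8 to 16 weeks, with no treatment named, and each had been enriched on cKit beads and sorted singly with its antibody signals recorded. The growth protocol, shared by several experiments, also lists congenic, Cas9-transgenic and Dach1-GFP mice, while the strain given for each cell here is C57BL/6. In each of the 2 library pools of 96 cells, the 24 cells with the highest CD150 signal were left out. The CD135-high cells were the remaining cells whose CD135 signal was among the pool's 24 highest, and the CD135-low cells were those with CD135 below the pool median. This gave 40 CD135-high cells (22 in pool 1 and 18 in pool 2) and 62 CD135-low cells (30 and 32), together 102 of the 192 cells of the series. No animal is named, so each side was treated as 1 sample: there is no test, and every interval covers counting error only.

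CD135 is the receptor tyrosine kinase FLT3, whose ligand supports early lymphoid and dendritic precursors. LSK cells with much CD135 are known as lymphoid-primed multipotent progenitors, which have largely lost megakaryocyte and erythroid potential while keeping lymphoid and granulocyte-monocyte potential. LSK cells with little CD135 and little CD150 hold multipotent progenitors that still contribute to megakaryocyte, erythroid and myeloid lineages, while CD150 marks long-term stem cells.

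The rule is a rank, so cells near its limits differ little. In pool 1 the lowest CD135 signal among the 24 highest was 1427 arbitrary units and the next cell outside had 1415. In pool 2 these values were 1359 and 1265. The last CD135-low cell below the median had 450.4 in pool 1 and 668 in pool 2, with medians of 478 and 685. The CD150 exclusion fell at 104 against 99.8 in pool 1 and at 88.4 against 86.7 in pool 2, and it removed 8 of the 48 cells with the highest CD135 but 34 of those below the median. The 1 cell dropped for depth, with 708 gene UMIs (unique molecular identifiers, which count captured RNA molecules), was on neither side.

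The gene UMIs came to 741423 in CD135-high cells (per cell 7243 to 41199, median 17222.5) and to 1121413 in CD135-low cells (3927 to 41782, median 16500.5). The median number of detected genes was 4840.5 in CD135-high and 4851.5 in CD135-low cells. Both pools used the same 96 cell indexes, so a cell is identified by index and pool together. UMIs of Kit or Ly6a, the genes of the sorted proteins cKit and Sca-1, were found in all 40 CD135-high and all 62 CD135-low cells. Some defining markers of mature lineages were absent: Vwf had no UMI on either side, Gata1, Pax5 and Ms4a2 had none in CD135-high cells, and Siglech and Klrd1 had none in CD135-low cells. Others were present in part of the cells. Of 40 CD135-high and 62 CD135-low cells, 9 and 27 held a UMI of a mast cell and basophil marker. For erythroid markers 11 and 26 cells did, for megakaryocyte 5 and 24, and for dendritic 18 and 23. For B lineage markers 9 and 11 did, and for T and NK markers 7 and 2. Summed B lineage markers in single cells lay between 0 and 240.2 CPM (UMIs per 1000000 gene UMIs) in CD135-high cells and between 0 and 2181 CPM in CD135-low cells. Summed erythroid markers reached 235 CPM in CD135-high and 2570.4 CPM in CD135-low cells, and summed granulocyte-monocyte markers 1319 and 9607 CPM. Summed mast cell and basophil markers reached 188 and 2874 CPM, and summed dendritic markers 857 and 1498 CPM. CD127 signals above 2000 units were seen in 5 CD135-high and 4 CD135-low cells, and values without these cells are given where they matter.

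The surface signals that the rule did not use also differed between the sides. The cKit signal had a median of 5058 units (1739 to 7440) in CD135-high cells, against 7151 (1671 to 16353) in CD135-low cells. Only 3 of the 40 CD135-high cells lay above the CD135-low median, so the sides overlapped little at the upper end, and all 3 were in pool 1. The Fc receptor signal CD16/32, high on granulocyte-monocyte progenitors, had a median of 368 units (62.2 to 1503) in CD135-high cells and 620 (71.8 to 4386) in CD135-low cells, with 8 of 40 CD135-high cells above the CD135-low median. The signal of CD127, the interleukin-7 receptor chain, had a median of 601 units in CD135-high and 398 in CD135-low cells, and 33 of 40 CD135-high cells lay above the CD135-low median. Sca-1 differed in pool 1, where the medians were 1875 units in CD135-high and 1071 in CD135-low cells, but not in the same direction in pool 2, where they were 1403 and 1445. CD11b and forward scatter overlapped widely: CD11b medians were 85.6 units in CD135-high and 90.8 in CD135-low cells, and forward scatter medians 136500 and 132500.

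**Figure D1:**
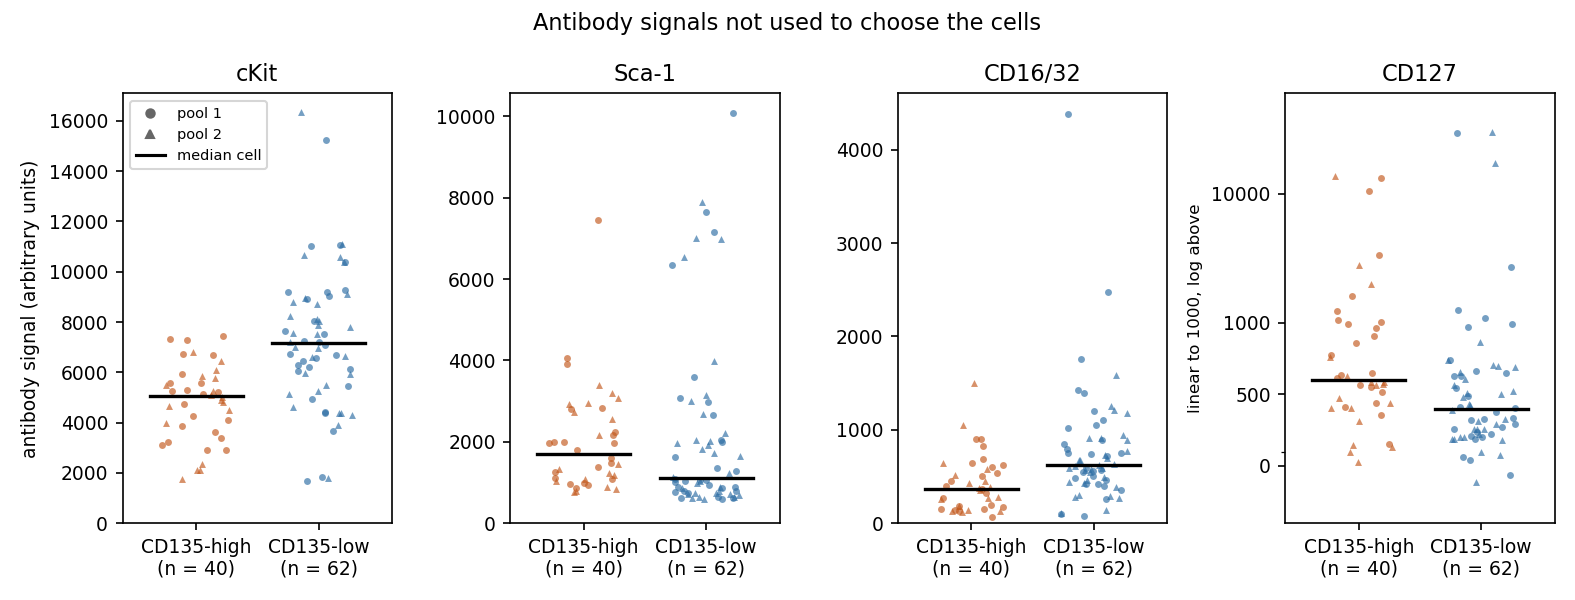
Antibody signals in arbitrary units of the 40 CD135-high (left in each panel) and 62 CD135-low cells (right), with 1 point per cell, circles for pool 1, triangles for pool 2 and a bar at the median, on linear axes except that the CD127 axis becomes logarithmic at high values, as marked on it. CD135-high cells lie lower for cKit (median 5058 against 7151) and CD16/32 (368 against 620) and higher for CD127 (601 against 398).

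The 5 marker genes of the comparison separated the sides in the direction of the labels, in both pools. Flt3, which encodes CD135 itself, had a lowest, median and highest value per cell of 0, 548 and 1788 CPM in CD135-high cells, and 0, 154 and 790 CPM in CD135-low cells. The distributions overlapped in their lower parts, with 3 CD135-low cells above the CD135-high median. Summed over cells, Flt3 stood at 609.6 CPM in CD135-high and 194 CPM in CD135-low cells, a log2 ratio of 1.65 (95% counting interval 1.41 to 1.89). A UMI of Flt3 was present in 39 of 40 CD135-high and in 52 of 62 CD135-low cells, so most CD135-low cells still held the transcript.

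Dntt encodes terminal deoxynucleotidyl transferase, which adds nucleotides at the joints of rearranging antigen receptor genes. Single cells held 0, 759 and 3017 CPM (lowest, median, highest) in CD135-high cells, and 0, 51.1 and 1179 CPM in CD135-low cells. All but 1 CD135-high cell lay above the CD135-low median, and 3 CD135-low cells lay above the CD135-high median. The sums were 668 UMIs (901 CPM) in CD135-high and 141 UMIs (126 CPM) in CD135-low cells, 7.17-fold apart (log2 ratio 2.84, 2.58 to 3.11). The CD127-high cells held 244 of the 668 Dntt UMIs of CD135-high cells and 71 of the 141 of CD135-low cells. Without them the Dntt log2 ratio was 3.35, larger than with them.

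Ighm, the constant region of the IgM heavy chain, gave the cleanest separation of the 5 by presence: each of the 40 CD135-high cells held a UMI, against 25 of 62 CD135-low cells (40.3%, exact Clopper-Pearson interval 28.1 to 53.6). Its values per cell were 110, 417 and 1568 CPM in CD135-high cells and 0, 0 and 1267 CPM in CD135-low cells. The highest CD135-low cell alone held 43 of the 103 Ighm UMIs of that side. The Ighm log2 ratio was 2.42 (2.10 to 2.75), and 3.32 without the CD127-high cells. Satb1, a chromatin organiser of lymphoid progenitors, was broader: 36.6, 438 and 1097 CPM in CD135-high cells and 0, 153 and 1048 CPM in CD135-low cells, and the upper ends of both sides nearly coincided. Its log2 ratio was 1.32 (1.08 to 1.57), with 1.53 in pool 1 and 1.16 in pool 2.

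Dach1, a nuclear transcriptional regulator on chromosome 14 (GRCm38, 97786853 to 98169765, minus strand), ran the other way. Its values per cell were 0, 0 and 351 CPM in CD135-high cells, and 0, 78.3 and 758 CPM in CD135-low cells. At least 1 Dach1 UMI was found in 12 of 40 CD135-high cells (30%, 16.6 to 46.5) and in 42 of 62 CD135-low cells (67.7%, 54.7 to 79.1). With every cell thinned to 12147 UMIs, which left out 7 CD135-high and 8 CD135-low cells, the shares were 24.2% and 68.5%. The log2 ratio was -2.06 (-2.74 to -1.43), from 24 against 151 UMIs, with -2.24 in pool 1 and -1.84 in pool 2. Dach1 levels were lower in pool 2 on both sides: CD135-high cells had 41.8 CPM in pool 1 and 19.3 in pool 2, and CD135-low cells 197 and 69.2. The CD127-high cells held 1 Dach1 UMI on each side. Dach1, Satb1, Flt3, Notch1, Nav1 and Mn1 overlap other annotated genes, whose reads cannot be told apart from theirs without strand.

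**Figure D2:**
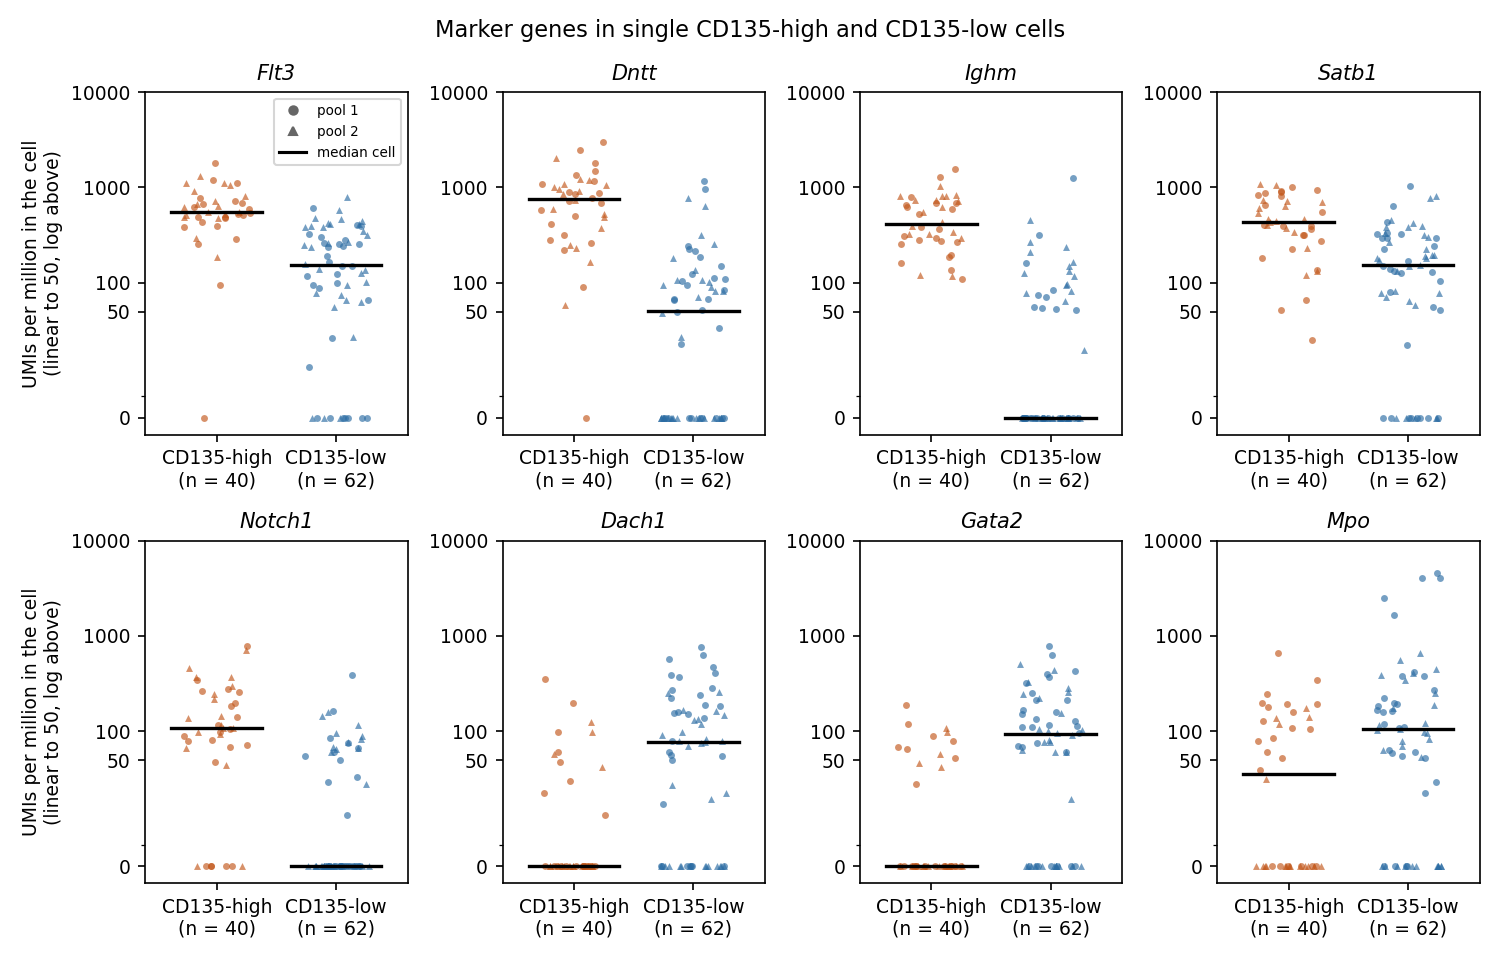
Level of 8 genes in single cells, in UMIs per 1000000 gene UMIs of the cell (CPM) (axis linear to 50, logarithmic above), for the 40 CD135-high cells (left) and 62 CD135-low cells (right); circles are pool 1, triangles pool 2, bars the median cell. Ighm has a UMI in all 40 CD135-high cells and a median of 0 in CD135-low cells, while Dach1 has a median of 0 in CD135-high and 78.3 CPM in CD135-low cells.

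The markers combined within cells in different ways on each side. All of Flt3, Dntt, Ighm and Satb1 had a UMI in 38 of 40 CD135-high cells but in 14 of 62 CD135-low cells. The other CD135-low cells held 3 of these genes (18 cells), 2 (22 cells) or 1 (8 cells), and none held 0. Dntt and Ighm were found together in 39 of 40 CD135-high and 16 of 62 CD135-low cells. Dach1 was present in 11 of the 38 CD135-high cells with all 4 lymphoid markers. On the CD135-low side it was present in 7 of 14 cells with 4 of them, 12 of 18 with 3, 16 of 22 with 2 and 7 of 8 with 1.

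Across the genome, 5979 genes had at least 50 UMIs over both sides and at least 10 in each pool. A gene was called when it was at least 2-fold apart in the same direction in each pool. By that rule 48 genes were higher in CD135-high cells (0.803% of those tested) and 55 were lower (0.92%). Of the 5 markers, 4 were among the 48 and Dach1 was among the 55. The median log2 ratio of the 11259 genes with at least 10 UMIs was -0.06.

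**Figure D3:**
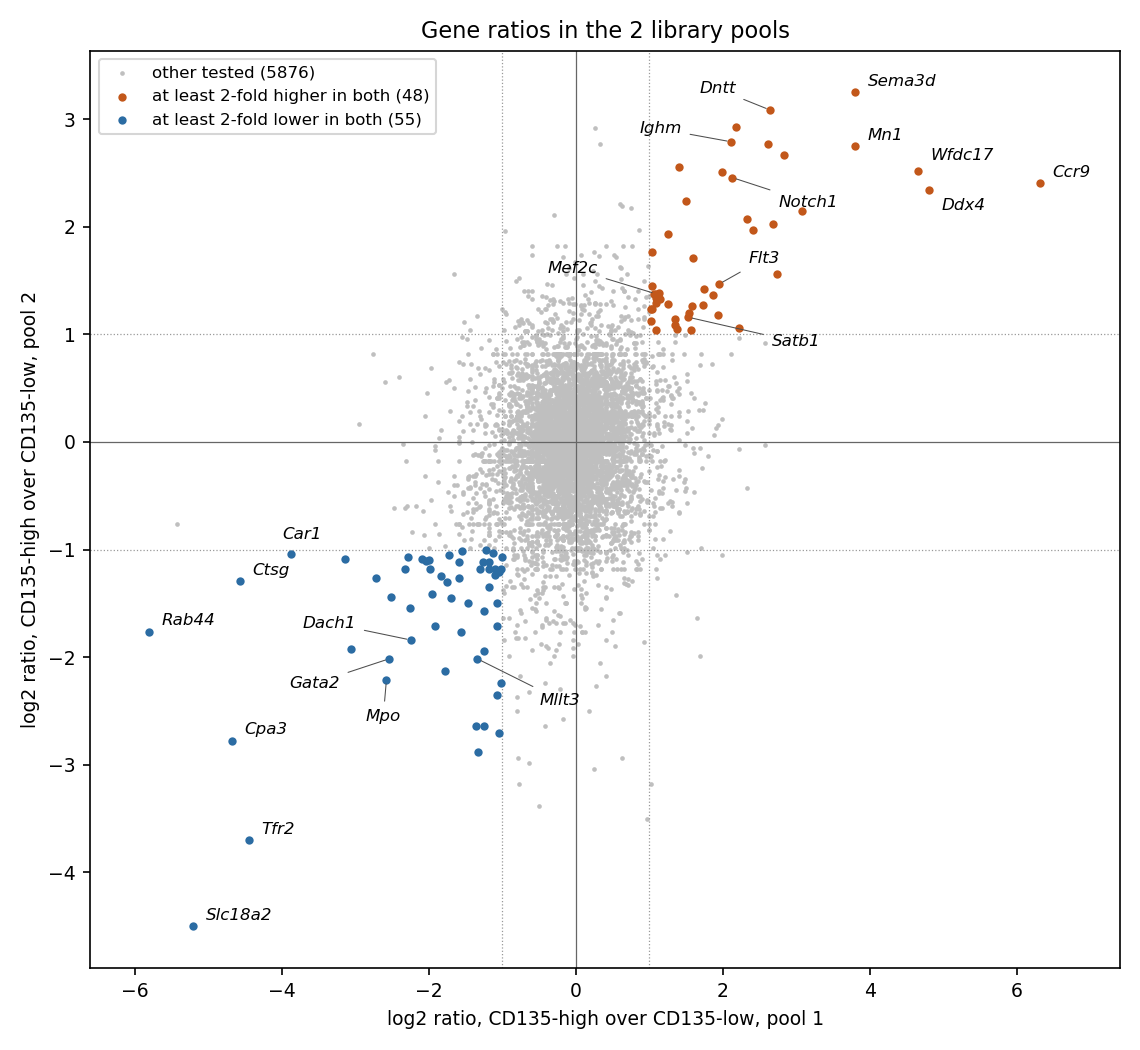
Log2 ratio of CD135-high over CD135-low cells in pool 1 (horizontal) and pool 2 (vertical) for the 5979 genes tested; orange points are the 48 genes called higher, blue points the 55 called lower, and dotted lines mark 2-fold. Dntt, Ighm and Sema3d lie far from 0 in both pools, while Ccr9 and Rab44 are much farther from 0 in pool 1 than in pool 2.

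Among the genes higher in CD135-high cells were receptors and signalling proteins. Ccr9, the chemokine receptor through which progenitors home to the thymus, had the largest log2 ratio of the 12 genes whose interval lay farthest above 0, 3.82 (2.83 to 4.997; 6.32 in pool 1 and 2.41 in pool 2). It was carried by few cells: 17 of 40 CD135-high cells held its 84 UMIs and 2 of 62 CD135-low cells its 9. CD127-high cells held 12 of the 84 Ccr9 UMIs on the CD135-high side and 8 of the 9 on the CD135-low side. Ccr9 overlaps Lztfl1 and other genes, and the strand used in counting is not stated, so their reads cannot be told apart. Notch1, the receptor that directs progenitors to the T lineage, was more evenly spread. The lowest, median and highest cells held 0, 110 and 784 CPM in CD135-high cells and 0, 0 and 386 CPM in CD135-low cells, and 33 of 40 against 23 of 62 cells held a UMI. Its log2 ratio was 2.27 (1.72 to 2.86), from 115 against 36 UMIs. Il18rap, the accessory chain of the interleukin-18 receptor, had a log2 ratio of 2.83. The Il18rap log2 ratio was 1.63 with the 16 highest and 32 lowest cells by CD135, and a CD127-high cell held 14 of its 61 CD135-high UMIs. Lck, a kinase of T cell receptor signalling, had 1.39 but was not called, with 0.97 in pool 2.

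Il12a, the p35 subunit of interleukin-12, came close to Ighm in how evenly CD135-high cells held it. Its values per cell were 0, 220 and 841 CPM in CD135-high cells and 0, 0 and 271 CPM in CD135-low cells. A UMI was present in 38 of 40 CD135-high and 28 of 62 CD135-low cells, and 1 CD135-low cell lay above the CD135-high median (log2 ratio 2.52, 2.01 to 3.05). Ncf1, the p47phox organiser subunit of the NADPH oxidase, had a log2 ratio of 2.23 (124 against 40 UMIs). The other 4 measured genes of that oxidase lay between -0.60 (Ncf4) and 0.13 (Cyba). Ncf4 had too few UMIs to be tested (7 against 16), and of the 4 genes tested only Ncf1 was called. Ncf1 overlaps Gtf2ird2 in the annotation.

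The other genes of these 12 cover varied functions. Wfdc17, of the whey acidic protein family, had 83 UMIs in 32 of 40 CD135-high cells and 11 UMIs in 10 of 62 CD135-low cells (log2 ratio 3.51, 2.60 to 4.57). Sema3d, a secreted semaphorin, had a log2 ratio of 3.28 (64 against 10 UMIs). Ddx4, an RNA helicase known from germ cells, had 2.89 (44 against 9 UMIs), and Mn1, a transcriptional coactivator, also 2.89 (59 against 12). The membrane protein gene Emp1 had 2.70 and Nav1, of the neuron navigator family, 2.42. Each of these was at least 2-fold higher in both pools, and no cell held over 20% of the UMIs of any of them. Among other genes called, the transporter gene Slc35d3 had a log2 ratio of 2.09, the sodium/hydrogen exchanger gene Slc9a9 1.92, the calponin gene Cnn3 1.87 and the inhibitory signalling gene Smad7 1.82. These last were chosen after their values were seen.

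Lymphoid transcription factors divided. Of the 17 measured, 9 were higher and 8 lower in CD135-high cells, with a median log2 ratio of 0.11, and 3 were called higher: Satb1, Mef2c (1.22, 0.97 to 1.47) and Pou2f2 (1.24, 0.82 to 1.66). Mef2c, which acts in early lymphoid specification, had values per cell of 0, 395 and 1151 CPM in CD135-high cells and 0, 137 and 562 CPM in CD135-low cells, and 36 of 40 CD135-high cells lay above the CD135-low median. The E protein gene Tcf4 had a log2 ratio of 0.93, Ikzf1, which encodes Ikaros, 0.83, and Bcl11a 0.59. The most counted factor of the list, Sox4, differed little (758 against 979 UMIs, 0.23), and was lower in pool 1 (-0.13) and higher in pool 2 (0.62). The factors Lef1, Tcf7, Ebf1 and Foxo1 were lower, with over 20% of their UMIs in 1 cell each. The others that were lower were the E protein genes Tcf3 (-0.27) and Tcf12 (-0.29), Runx3 (-0.01) and Bach2 (-0.14). The intervals of Tcf3, Tcf12, Runx3, Bach2 and Foxo1 included 0, while those of Lef1, Tcf7 and Ebf1 lay below 0. Without CD127-high cells the lymphoid transcription factors list median was 0.38.

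Homing and surface receptors of lymphoid progenitors leaned the same way. Of 13 measured genes, 11 were higher and 2 lower, with a median log2 ratio of 0.57 and 3 called higher (Flt3, Notch1 and Ccr9). Cd52 (0.79), Cd44 (0.52) and Cxcr4 (0.55) lay near the median. Il7r, the gene of CD127, had a log2 ratio of 2.83 from 33 against 7 UMIs, and CD127-high cells held 32 of the 33 and all 7.

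Most antigen receptor genes other than Dntt and Ighm were led by single cells. Of the 8 measured, 4 were higher and 4 lower (median -0.37), and for 6 of them 1 cell supplied over 20% of the UMIs. Rag2, a subunit of the recombinase that cuts antigen receptor genes, was the most spread of these, with 15 UMIs in 9 of 40 CD135-high cells and 2 UMIs in 2 of 62 CD135-low cells (log2 ratio 3.504, 1.40 to 6.68). The surrogate light chain gene Igll1 had 1 against 37 UMIs, and Vpreb1 2 against 47. For Igll1 all 37 CD135-low UMIs lay in 1 cell. That cell, a CD135-low cell of pool 1 with a CD127 signal of 29635 units, also held most UMIs of Cd79a and Vpreb3. Trbc1 (3 against 63 UMIs) rested on another CD135-low cell, in pool 2, with a CD127 signal of 30309. Another CD135-low cell of pool 2, with a CD127 signal of 17237, led Rora, Id2, Gata3 and Tcf7. Of the 6 measured B lineage genes 2 were higher and 4 lower (median -1.11), and of the 6 T, ILC and NK lineage genes 1 was higher and 5 lower (median -1.85). For 4 of these T, ILC and NK genes 1 cell supplied over 20% of the UMIs, and the 2 others, Nkg7 and Lck, had a median of 0.69. Without CD127-high cells the antigen receptor assembly list median rests on Dntt and Ighm alone (3.33), since no other member kept 10 UMIs.

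Among the genes lower in CD135-high cells, the transcription factor Gata2 was called. Gata2, which acts in stem cells and in those lineages, had values per cell of 0, 0 and 188 CPM in CD135-high cells and 0, 93.1 and 781 CPM in CD135-low cells. A UMI was found in 13 of 40 CD135-high and 43 of 62 CD135-low cells. The log2 ratio was -2.31 (-3.06 to -1.63), with -2.53 in pool 1 and -2.01 in pool 2. Of the same erythro-megakaryocytic list, Tal1 had -0.95 and Zfpm1, the GATA cofactor FOG1, -0.93, while Lmo2 (-0.18) and Erg (-0.25) had intervals that reached 0. Of the 13 measured, 12 were lower and 1 higher (Ldb1, 0.40), and the median was -0.49. Zbtb16 had 0 against 31 UMIs, with 48.4% of them in 1 cell.

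Erythroid and megakaryocyte lists also had medians below 0. Tfr2, transferrin receptor 2, was rare in CD135-high cells, with 2 UMIs in 40 CD135-high cells and 52 UMIs spread over 33 of 62 CD135-low cells (log2 ratio -4.10, -7.19 to -2.18). Tfrc, the main iron uptake receptor, had -0.17 (-0.77 to 0.40), with -0.54 in pool 1 and 0.46 in pool 2. All 12 measured erythroid genes were lower (median -1.90), but for 8 of them 1 cell supplied over 20% of the UMIs, and the median was -2.36 in pool 1 and -0.20 in pool 2. Hba-a1 and Hba-a2 were led by 1 CD135-low cell of pool 1. Without genes so held, 4 erythroid genes remained with a median of -1.06. Of 8 megakaryocyte genes, 7 were lower (median -1.06). The tetraspanin gene Cd9 had a log2 ratio of -2.10 (8 against 52 UMIs, in 7 of 40 CD135-high and 31 of 62 CD135-low cells). Plek, which encodes pleckstrin, was the exception at 0.89.

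Stem cell genes were lower in CD135-high cells by differing amounts. Of the 16 measured, 14 were lower and 2 higher, with a median log2 ratio of -0.67 and 1 called (Mllt3, -1.68, from 18 against 87 UMIs). Angpt1, the ligand of the receptor TIE2, had -1.003 (220 against 667 UMIs), and Tek, the receptor gene, -1.65 from 4 against 19 UMIs. Hlf, a transcription factor of stem cells, was lower by less (-0.43, -0.61 to -0.25) and was present in 34 of 40 CD135-high and 60 of 62 CD135-low cells. Meis1 (-0.08), Txnip (-0.02) and Ifitm1 (-0.20) had intervals that included 0. Kit had a log2 ratio of -0.59 (-0.81 to -0.37), in the direction of its surface signal. Single cells held 57.5, 297 and 701 CPM in CD135-high cells and 0, 467 and 2110 CPM in CD135-low cells, which overlapped broadly.

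Granulocyte-monocyte genes divided. The neutrophil granule gene Mpo, for myeloperoxidase, had values per cell of 0, 43.3 and 659 CPM in CD135-high cells and 0, 105 and 4529 CPM in CD135-low cells, with 67 against 533 UMIs (log2 ratio -2.39, -2.78 to -2.03). Its UMIs were concentrated: 5 CD135-low cells held 391 of the 533, and 1 of them 121. A UMI of Mpo was present in 21 of 40 CD135-high and in 46 of 62 CD135-low cells. Prtn3, for proteinase 3, was spread more evenly (24 of 40 and 54 of 62 cells), with a log2 ratio of -1.61 (-2.03 to -1.22), -2.22 in pool 1 and -0.83 in pool 2. Elane and Ctsg, for neutrophil elastase and cathepsin G, were led by 1 CD135-low cell of pool 1 that also had the highest CD16/32 signal, 4386 units. Elane had 6 against 175 UMIs, of which that cell held 108. Other members lay the other way or near 0: Irf8, a monocyte and dendritic regulator, had 1.01, Csf3r 0.45, Plac8 -0.14 and Lyz2 -0.12. Of the 17 measured, 6 were higher and 11 lower (median -0.27).

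Mast cell and basophil genes were lower in CD135-high cells, through a part of the CD135-low cells. All 6 measured were lower over both pools, with a median log2 ratio of -2.56 (-3.08 in pool 1 and -0.82 in pool 2). For 5 of them 1 cell supplied over 20% of the UMIs, and the other, Lmo4, had -1.13. Cpa3, a mast cell carboxypeptidase, had 12 UMIs in 9 of 40 CD135-high cells and 211 UMIs in 26 of 62 CD135-low cells (-3.54, -4.51 to -2.70). Slc18a2, the vesicular monoamine transporter of mast cells and basophils, had 2 UMIs in 2 CD135-high cells and 89 UMIs in 23 CD135-low cells (-4.88, -7.95 to -2.98). In both genes 1 cell held over 20% of the UMIs. For Cpa3 it was the CD135-low cell of pool 2 with a CD127 signal of 30309 that also led Trbc1. CD127-high cells held 45 of the 211 Cpa3 UMIs of CD135-low cells and 4 of the 12 of CD135-high cells. Gata2 and Cpa3 were found together in 4 of 40 CD135-high and 18 of 62 CD135-low cells, and Gata2 and Mpo together in 6 of 40 CD135-high and 32 of 62 CD135-low cells.

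The remaining genes of the 12 whose interval lay farthest below 0 have varied functions. Muc13, a membrane mucin, had 35 against 226 UMIs (log2 ratio -2.09, -2.65 to -1.58) and was present in 19 of 40 CD135-high and 46 of 62 CD135-low cells. Csgalnact1, an enzyme of chondroitin sulfate synthesis, had -2.45, and its relative Csgalnact2, also called, -1.38. Rab44, a large Rab GTPase, had 3 against 86 UMIs, with a log2 ratio of -5.80 in pool 1 and -1.76 in pool 2. The protease inhibitor gene Serpina3g had -1.87 and Ankrd12 -1.59. Tent5a, a non-canonical poly(A) polymerase, had -2.24 but was not called, since pool 2 gave -0.76 against -5.42 in pool 1. Hist1h2bc (-1.72) is 1 of many near-identical histone genes, so its reads are uncertain. Also called were Apoe (-1.59), the dye exporter gene Abcg2 (-1.59), the integrin gene Itga6 (-1.32) and Cited2 (-1.55), named after their values were seen.

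**Figure D4:**
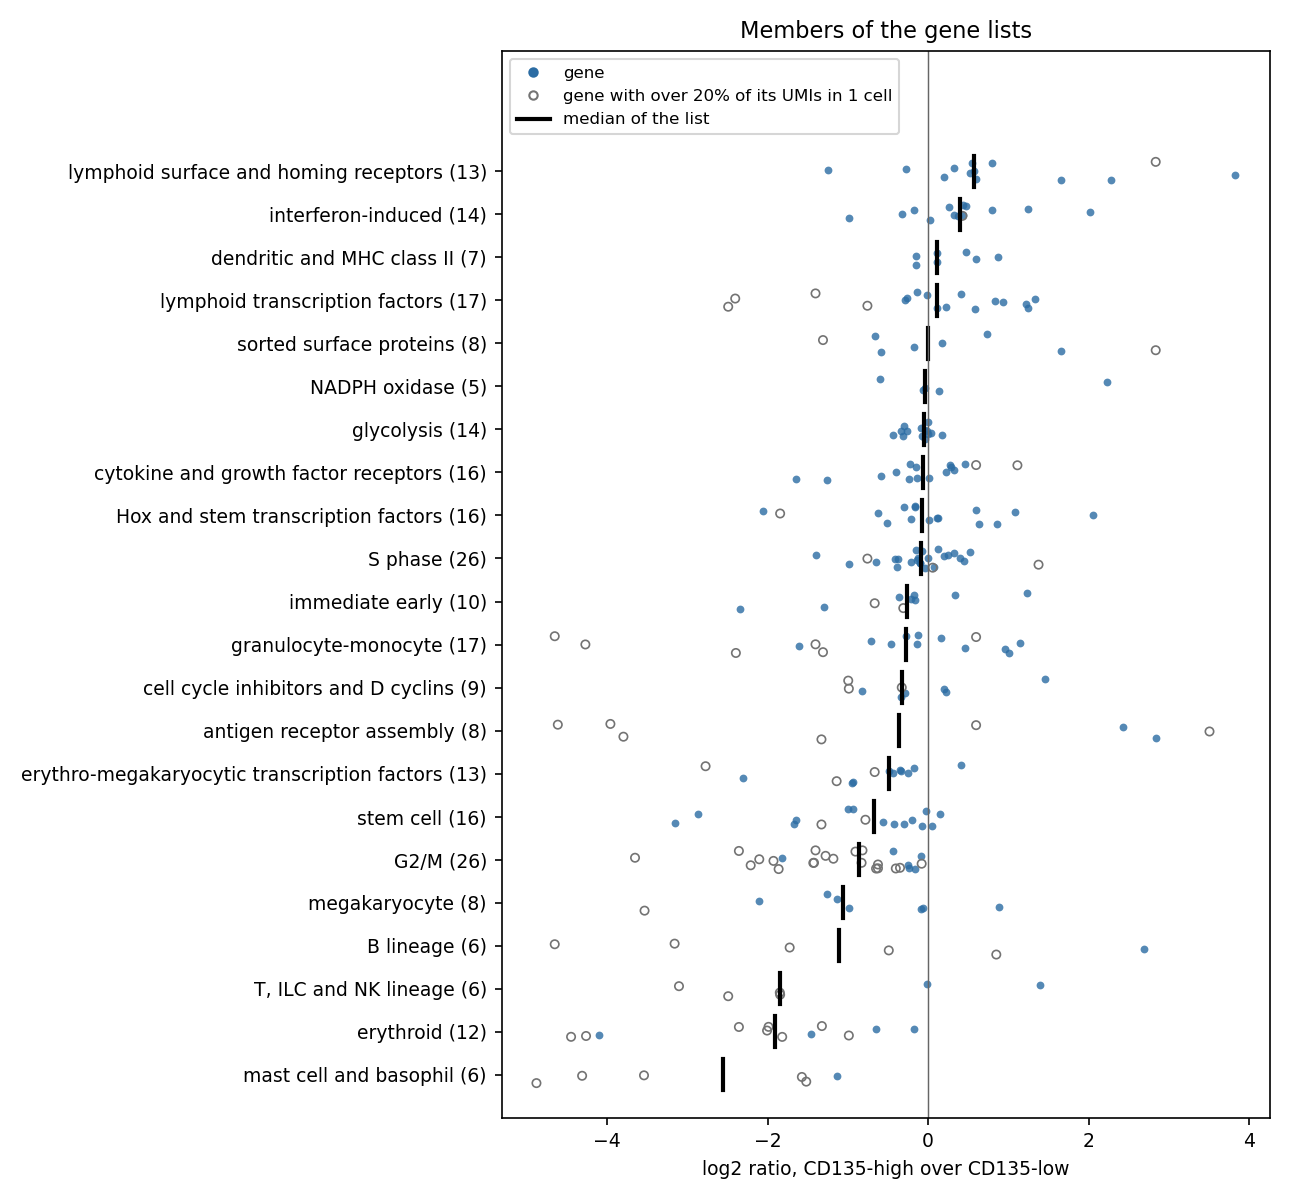
Log2 ratio of CD135-high over CD135-low cells for each measured member of 22 gene lists, ordered by the median (bar), with the number of members in parentheses; open circles are genes for which 1 cell supplied over 20% of the UMIs, and a gene with no UMI on 1 side is drawn at the bound set by 3 UMIs. The lymphoid surface list has the highest median (0.57) and the mast cell and basophil list the lowest (-2.56), of 6 genes, 5 of them open circles.

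Cell cycle genes differed mainly through few cells. All 26 measured G2/M genes were lower in CD135-high cells, with a median log2 ratio of -0.87 (-1.09 in pool 1 and -0.11 in pool 2), but for 20 of them 1 cell supplied over 20% of the UMIs. The 6 others had a median of -0.24. Of 9 G2/M genes tested, 2 were called lower. Cdk1 had -1.42, with -1.59 in pool 1 and -1.27 in pool 2, and Cenpe had -1.43, with -1.33 and -2.88. In both, 1 cell supplied over 20% of the UMIs. A single CD135-low cell of pool 1 held over 20% of the UMIs of 81 genes, led by Mki67, Cenpf and Ccnb2. Mki67 was found in 9 of 40 CD135-high and 21 of 62 CD135-low cells. The S phase list differed in sign between pools, at 0.26 in pool 1 and -0.64 in pool 2. Cdk6, a kinase of G1 progression, was lower in a more even way (-0.82, -1.10 to -0.54, with -0.90 and -0.71 in the pools). The D cyclins split: Ccnd1 was called higher (1.46, 49 against 27 UMIs), Ccnd2 had 0.23, and Ccnd3 -0.996, with 20.2% of its UMIs in 1 cell.

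Levels in cells outside the comparison place both sides. The 42 cells with neither high CD150 nor CD135 at either end (CD135-middle) and the 33 cells with high CD150 and CD135 below the median (CD150-high) entered no ratio. Dntt stood at 901 CPM in CD135-high, 370.0 in CD135-middle, 126 in CD135-low and 44.4 in CD150-high cells, and Ighm, Flt3 and Satb1 kept that order. Dach1 had the reverse order, with 32.4, 80.7, 135 and 245 CPM in the same gates, and so did Gata2 and Tfr2. Those orders held in each pool. Mpo differed between pools: in pool 1 it stood at 130.0 CPM in CD135-high, 237 in CD135-middle, 774 in CD135-low and 82.1 in CD150-high cells, and in pool 2 at 35.4, 223, 164 and 83.0 CPM. The 5 CD135-low cells with 391 of the 533 Mpo UMIs were all in pool 1. Cpa3 and Prtn3 were highest in CD135-low cells in each pool, at 188 and 264 CPM in all, against 59.6 and 131 CPM in CD150-high cells, though Prtn3 in pool 2 had 189 CPM in CD135-low and 184 in CD135-middle cells.

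Over the called genes, CD135-middle cells exceeded CD135-low cells in 43 of the 48 genes called higher and in 3 of the 55 called lower, while the same held for 46.7% of all genes tested. CD150-high cells exceeded CD135-low cells in 12 of the 48 (25%) and 22 of the 55 (40%), against 46.5% of all tested. The CD135-low level helped choose these genes, so the counts are a description only. Among the 55 genes lower in CD135-high cells, Mpo and Cpa3 had a CD135-low level above that of CD150-high cells. Dach1, Gata2, Tfr2 and Slc18a2 were higher still in CD150-high cells. Ccr9 had 113 CPM in CD135-high cells, 5.05 in CD135-middle, 8.03 in CD135-low and 2.54 in CD150-high cells. The CD135-low level came from 9 UMIs, 8 of them in 1 CD127-high cell, so the order of the gates below CD135-high is uncertain.

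**Figure D5:**
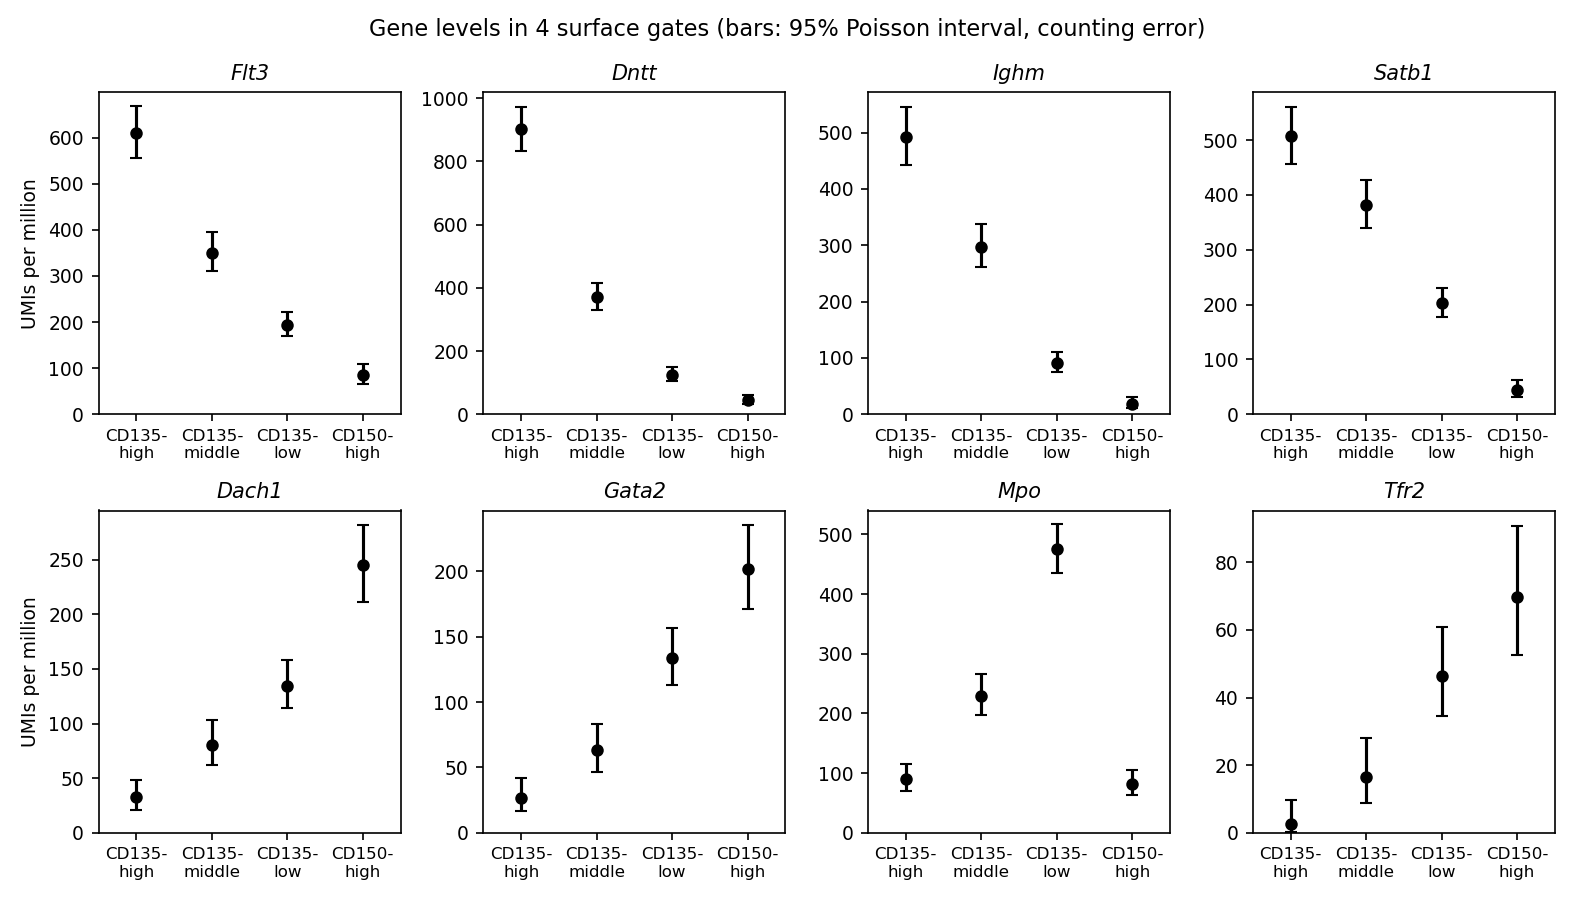
Levels of 8 genes in CPM, with 95% Poisson intervals for counting error, in CD135-high (40 cells), CD135-middle (42), CD135-low (62) and CD150-high CD135-low cells (33), from left to right. Flt3, Dntt, Ighm and Satb1 are lower in each gate to the right, Dach1, Gata2 and Tfr2 are higher, and Mpo is at 475 CPM in CD135-low cells, with 774 CPM in pool 1 and 164 in pool 2.

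The sequences at the start sites of called genes were searched for letters that blood cell factors bind. RefSeq promoter windows of 300 bases (250 before to 50 after a start, GRCm38.p6) matched 37 of the 48 genes called higher and 38 of the 55 called lower. Dntt, Mpo and Dach1 are shown because they are called genes whose values per cell are given above. They are written 5' to 3' on the gene's strand, and capitals mark a match, AGATAA in Dntt and AGGAAGT in Mpo, with none in Dach1.
Dntt, chr19:41029025-41029324, plus strand: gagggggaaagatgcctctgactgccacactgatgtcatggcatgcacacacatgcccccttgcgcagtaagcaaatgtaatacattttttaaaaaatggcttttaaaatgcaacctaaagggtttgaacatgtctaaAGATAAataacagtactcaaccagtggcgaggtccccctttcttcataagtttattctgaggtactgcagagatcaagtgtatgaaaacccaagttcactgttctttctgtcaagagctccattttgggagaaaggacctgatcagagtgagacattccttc
Mpo, chr11:87793534-87793833, plus strand: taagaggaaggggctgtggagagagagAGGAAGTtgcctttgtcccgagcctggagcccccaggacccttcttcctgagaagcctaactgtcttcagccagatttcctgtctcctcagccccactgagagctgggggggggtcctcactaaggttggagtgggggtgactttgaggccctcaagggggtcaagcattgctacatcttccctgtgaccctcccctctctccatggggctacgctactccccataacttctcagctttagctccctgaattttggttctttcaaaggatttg
Dach1, chr14:98169716-98170015, minus strand: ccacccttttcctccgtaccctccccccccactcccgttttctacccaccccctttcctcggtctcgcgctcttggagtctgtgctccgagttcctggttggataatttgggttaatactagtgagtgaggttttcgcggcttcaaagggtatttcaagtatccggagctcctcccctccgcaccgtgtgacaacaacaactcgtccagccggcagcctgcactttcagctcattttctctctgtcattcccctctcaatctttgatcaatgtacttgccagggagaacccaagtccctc

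Each motif was searched on both strands, and a gene counted once if any of its windows held it. The GATA letters AGATAA were in 3 of 37 genes called higher (8.11%), Dntt among them, and in 3 of 38 called lower (7.89%, Cpa3, Slc18a2 and Serpina3g), against 12.7% of the 27025 genes with a window. The RUNX letters TGTGGT were in 12 of 37 called higher (32.4%), Il12a, Il18rap, Emp1, Wfdc17 and Pou2f2 among them, and in 7 of 38 called lower (18.4%), against 18.9% of all. The ETS letters AGGAAGT were in 8 (21.6%, Satb1 and Il18rap among them) and 7 (18.4%, Mpo and Ctsg among them), against 10.7% of all. The E-box CAGCTG was in 8 called higher (21.6%) and 10 called lower (26.3%), against 18.3%, and the form CAGGTG in 9 and 9 (24.3% and 23.7%), against 22.6%. Genes called higher had 63 windows for 37 genes and those called lower 50 for 38, against 32851 for 27025 in the whole table, so the called genes offered more sequence per gene. A match is a description of these letters and not evidence of binding.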

How the data were processed

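The authors deposited whole-number UMI counts, not normalized, for each gene in each cell, from an adapted CEL-seq2 protocol with poly(A) priming, ERCC spike-ins and 6-base UMIs, per the labels' protocols. The submitters' processing notes name the human build GRCh38, although all gene identifiers are mouse Ensembl ones. Aligner, counter and strand setting: not given in the sources used here. Symbols and coordinates came from GENCODE M21 (GRCm38) by identifier, for 20530 of 20764 genes.

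Cells were ranked by the antibody signals in the labels within each pool (the first index of the title), and cells under 20% of their pool's median gene UMIs were then dropped. Doublets were not called, since cells were sorted singly. CPM is the sum of a gene's UMIs on a side over that side's total without spike-ins. Ratios have exact conditional binomial, levels exact Poisson and shares exact Clopper-Pearson 95% intervals. The calculation was tested on simulated data. A side at 0 was set at a floor of 3 UMIs, which makes the ratio a bound. Lists give the median log2 ratio of members with at least 10 UMIs. Members and lists were chosen with earlier results of these data known.

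Named genes were, per direction, the 12 genes whose interval lay farthest from 0, among those of at least 50 UMIs with a regular symbol, equal sign in each pool and at most 20% of UMIs from any cell. Added were the markers, the genes of the sorted proteins, and up to 5 most counted members of a list plus any called. Other genes on a list are named by their place on it. Alternatives changed the scaling (TMM in edgeR 4.0.16), depth, cell filters, gates, pools and thresholds; leaving out the cells that hold over 20% of the UMIs of at least 30 genes was chosen after seeing the data. Python 3.11.15, pandas 2.3.3, scipy 1.17.1 and R 4.3.3 were used.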

Additional observations from a re-analysis of the deposited data

How the results depend on the processing

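The count of genes at least 2-fold higher in both pools (48) was 26 with cells thinned to a common depth, 77 with no cell left out by CD150, 105 at a minimum of 20 UMIs and 173 at 1.5-fold, and the count lower (55) was 137, 147 and 243 under the last 3 of these. Under the other alternatives that could give them, the counts lay between 38 and 53 for higher and 38 and 66 for lower. At 1.5-fold the 5979 genes tested were unchanged. Thinning, other sets of cells and the minimum of 20 UMIs also changed which genes were tested. Those numbers are not given here, so the counts are not shares of the genes tested. A gene that fell under the UMI minimum could not be called again. Of the 48 and 55 genes, 37 and 37 were called again without CD127-high cells, and 17 and 22 after thinning. With the 16 highest and 32 lowest cells by CD135, 22 and 26 were called again. Without the 32 highest cells by CD150 these numbers were 33 and 26, and without cells above the 75th percentile of G2/M genes 29 and 27. The Dach1 log2 ratio lay between -2.49 and -1.77 in all alternatives. Among list values, the B lineage list median (-1.11) changed sign to 2.75 without CD127-high cells, 2.69 with 16 highest and 32 lowest cells by CD135, 2.41 in pool 2 alone, 2.49 without the top cell of each gene, 2.13 without cells above the 75th percentile of G2/M genes and 2.35 without the cells that hold many genes. Those medians rest on the 2 or 3 members (of 6) that still had at least 10 UMIs under the alternative, in pool 2 alone counted within that pool. The antigen receptor assembly list median (-0.37) also changed sign in several alternatives. Counted in the same way, it was 1.02 in pool 1 alone (6 members), 0.68 in pool 2 alone (4) and 3.33 without CD127-high cells (2). It stayed below 0 in others, such as -1.28 after thinning and -1.19 without the 32 highest cells by CD150. The Cpox log2 ratio (-1.32) was 0.24 in pool 2 alone. The Trbc1 log2 ratio (-3.80) was 1.33 without CD127-high cells, where Trbc1 had fewer than 10 UMIs. The cause of these changes was not tested. TMM scaling put the median of all genes at -0.03, against -0.06. Over 123 gene ratios, 1720 of 1843 alternative values kept their sign, and over 23 list medians 300 of 345 did. No paired analysis was possible because the cells carry no shared replicate number and no animal is named. The pools may or may not be separate animals, and genes with few UMIs have wide intervals.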

Other observations

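Interferon-induced genes lay slightly higher in CD135-high cells. Of the 14 measured, 11 were higher and 3 lower, with a median log2 ratio of 0.40 (0.51 in pool 1 and 0.03 in pool 2). None of the 8 tested was called. Ifi203 had 0.44 (331 against 370 UMIs) and Ifi27 0.79, while Ly6e had -0.33. Among dendritic and MHC class II genes, 5 of 7 were higher (median 0.11), with Cd74 at 0.87 and H2-Aa at -0.15.

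All 5 measured HOXA genes, which act in multipotent progenitors, had ratios above 0, by differing amounts: the Hoxa9 ratio was 0.86 on the log2 scale (157 against 131 UMIs) and that of Hoxa3 2.06 (22 against 8), while Hoxa10 (0.60), Hoxa5 (0.13) and Hoxa7 (0.11) had intervals that included 0. The Hoxa5 ratio was -0.64 in pool 1 and 1.35 in pool 2. The measured HOXB genes, Hoxb3 (0.01) and Hoxb4 (-0.63), also had intervals that included 0. Myb had -0.51 and Runx1 -0.30. Of the 16 measured Hox and stem transcription factors, 8 were higher and 8 lower. The 14 glycolysis genes kept close to all genes, with a median of -0.06 and values from -0.44 (Hk1) to 0.17 (Pfkl). Of 16 cytokine and growth factor receptors, 8 were higher and 8 lower (median -0.06), with Csf2ra at 0.29. Of 10 immediate early genes, 8 were lower and 2 higher (median -0.26): Dusp1 had -2.34 and Klf6 -1.30, while Btg2 had 1.22.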
